A study of Mus musculus with 8 samples.

Results

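Peaks of the DEAD-box RNA helicase DDX5 on small non-coding RNA genes were described in 3 lists of enhanced cross-linking and immunoprecipitation (eCLIPseq) from mouse intestinal epithelial cells (IECs). A peak belonged to the set if it overlapped, by at least 1 base and on the same strand, a gene of the GENCODE M21 annotation (build GRCm38) of type rRNA, snRNA, snoRNA, scaRNA, misc_RNA or miRNA. The rule used positions and annotated types, and no measured value. It found 33 of the 1278 peaks listed for the small intestine, 590 of the 16455 listed for colon mAb and 501 of the 9146 listed for colon rAb. These lay on 26, 371 and 322 genes, of the 6066 genes that the annotation holds for the 6 types. The 3 lists were kept apart throughout. Few peaks were at the edge of the rule: 6 mAb peaks reached no more than 5 bases into a gene, with log2 folds of −0.97 to 2.15, and 9 ended within 10 bases outside of one, at −2.34 to 3.43. In rAb these were 2 (−2.50 to −0.35) and 6 (−0.01 to 5.32), and in the small intestine 1 (4.39) and 1 (4.06).

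In eCLIPseq, UV light links proteins to the RNA they touch, the protein is immunoprecipitated (IP), and the RNA fragments recovered with it are sequenced next to a size-matched input library made without the IP. All 8 samples came from C57BL/6 mice and from cells released with EDTA. Small intestine IECs were from 8-week-old females, with 2 CLIP and 2 input samples, prepared by a paired-end protocol. Colon IECs had 1 CLIP and 1 input sample under the antibody name mAb and 1 CLIP and 1 input sample under the name rAb, prepared by a single-end protocol. For the colon mice the genotype label was wild type, while the growth label named mice 120 days old that carried Apcfl/+ and CDX2Cre, a Cre recombinase driven by an intestinal homeobox promoter. The methods of the study describe wild-type mice, as the genotype label does, and which of these holds was not settled here. All CLIP samples carried the same antibody catalogue number, so the labels do not say how mAb and rAb differ. The deposited names of the colon lists mark each as merged from replicates 1 and 2.

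Each peak had a log2 fold of IP over input reads, scaled for read depth, and a −log10 p from a test of the same reads, held at 400 where it was larger. A peak with both values above 3, the cutoff of the study, is called a site below. The small intestine list was merged over both replicates and held only sites. The colon lists held every peak called on the IP library, enriched or not. Each group had 1 list with no value per replicate, so no SD and no test between lists could be given. Intervals are exact, at 95%, and cover counting error only. Peaks of a gene share reads, so they are not independent of each other.

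Of 9 epithelial marker genes, 8 had a peak in each colon list and 6 had a site in the small intestine list. Of 5 markers of the colon epithelium, 4 had a peak in mAb, 1 (Muc2, a mucin) in rAb and 0 a site in the small intestine. Of 7 enterocyte markers of the small intestine, 6 had a site there and 0 had a peak in either colon list. The homeobox gene Cdx2 had no peak in any of the lists. Stroma and muscle markers had peaks in the colon lists (5 of 6 for mAb and 4 of 6 for rAb), as did 2 of 5 immune markers, and neither group had a site in the small intestine. The part of other cells in the colon values was not tested.

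Small non-coding RNAs do much of their work in the nucleus. Ribosomal RNAs (rRNAs) build the ribosome, and 5S rRNA is its smallest structural RNA, made by RNA polymerase III from many gene copies. Small nucleolar RNAs (snoRNAs) guide enzymes that modify rRNA: the C/D box class guides methylation of the ribose and the H/ACA box class guides the change of uridine to pseudouridine, and most of them are cut out of the introns of host genes. The small Cajal body RNAs (scaRNAs) do the same for spliceosomal RNAs. Small nuclear RNAs (snRNAs) form the spliceosome, and microRNAs (miRNAs) repress mRNAs after they are cut from a hairpin by the Drosha complex, with which DDX5 is known to associate.

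Sequences that carry the results are given here, read from GRCm38 and written from the 5′ to the 3′ end of each gene. The snoRNA sequences show the class that held sites and, for contrast, a member of the class that did not. Gm26247 (chr7:44248090-44248180, plus strand), Gm23991 (chr7:44250450-44250542, plus) and Snord12 (chr2:167065276-167065365, plus) are C/D box snoRNAs, with the bases under sites of the rAb list in capitals. Snora33 (chr10:23785347-23785475, minus) is an H/ACA box snoRNA, and its capitals mark a peak of the mAb list that lay far below input.
Gm26247: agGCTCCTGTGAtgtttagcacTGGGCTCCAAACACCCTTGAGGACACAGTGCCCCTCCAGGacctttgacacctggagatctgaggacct
Gm23991: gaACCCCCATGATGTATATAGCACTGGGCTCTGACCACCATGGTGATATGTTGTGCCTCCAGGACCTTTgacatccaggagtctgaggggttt
Snord12: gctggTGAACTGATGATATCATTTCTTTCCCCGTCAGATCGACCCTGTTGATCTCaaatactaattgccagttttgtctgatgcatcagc
Snora33: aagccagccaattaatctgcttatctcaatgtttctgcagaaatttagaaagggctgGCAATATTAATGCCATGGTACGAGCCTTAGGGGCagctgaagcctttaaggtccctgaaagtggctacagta

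For the spliceosomal RNAs, Gm24046 (U1, chr3:89967999-89968163, minus strand) is shown with its mAb site in capitals, and Gm25541 (U6atac, chr2:27539805-27539930, minus) with its small intestine site in capitals.
Gm24046: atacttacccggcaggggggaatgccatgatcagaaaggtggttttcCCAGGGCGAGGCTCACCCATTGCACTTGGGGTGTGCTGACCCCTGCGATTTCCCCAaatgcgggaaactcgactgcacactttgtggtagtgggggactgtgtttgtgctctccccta
Gm25541: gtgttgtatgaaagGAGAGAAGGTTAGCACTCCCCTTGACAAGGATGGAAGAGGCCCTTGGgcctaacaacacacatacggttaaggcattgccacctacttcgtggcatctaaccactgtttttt

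Mature miRNAs under sites are given from RefSeq, with the seed (bases 2 to 8) in capitals. No seed was shared between them, apart from miR-194-5p itself, which is made from both Mir194-1 and Mir194-2. RefSeq listed a mature sequence for 5 of the 10 miRNA genes of the small intestine list, 12 of 22 of the mAb list and 2 of 10 of the rAb list.
miR-194-5p: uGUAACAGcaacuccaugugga
miR-215-5p: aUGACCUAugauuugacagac
miR-142a-3p: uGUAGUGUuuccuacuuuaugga
miR-27a-3p: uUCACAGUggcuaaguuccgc

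A further 4 genes typed as miRNA had nearly the same sequence, printed here because their sites were read as 1 group below. Capitals mark sites of the small intestine list in Gm24270 (chr9:56223715-56223771, minus strand, in an intron of Peak1), Gm24187 (chr13:9834469-9834525, minus), Gm25911 (chr1:167340369-167340424, minus) and Gm23388 (chr8:85112012-85112068, minus).
Gm24270: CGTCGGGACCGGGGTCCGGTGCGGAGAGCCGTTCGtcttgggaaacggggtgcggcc
Gm24187: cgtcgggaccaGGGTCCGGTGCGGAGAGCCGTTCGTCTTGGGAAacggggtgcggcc
Gm25911: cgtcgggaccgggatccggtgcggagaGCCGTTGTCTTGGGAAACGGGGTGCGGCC
Gm23388: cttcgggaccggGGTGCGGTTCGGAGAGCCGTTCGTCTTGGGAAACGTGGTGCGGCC

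Across all 6 types, few colon peaks on small RNA genes were sites, and most of those sites lay on 5S-type rRNA genes. In the mAb list 18 of 590 peaks were sites (3.05%, interval 1.82 to 4.78), against 1.22% of all peaks of that list. In the rAb list 38 of 501 were sites (7.58%, interval 5.42 to 10.3), against 1.99% of all peaks. With peaks up to 10 bases apart joined, the shares were 2.44% in mAb (interval 1.18 to 4.44) and 4.84% in rAb (interval 2.85 to 7.64). The mAb interval then held the 1.22% of all peaks, and the rAb interval lay above the 1.99%. Both shares of all peaks were counted without joining. All 33 peaks of the small intestine were sites, as were 100% of the peaks of that list by its selection. With the rRNA genes left out, the shares were 3 of 513 (0.585%, interval 0.121 to 1.7) for mAb and 11 of 417 (2.64%, interval 1.32 to 4.67) for rAb, and both intervals then held the share of the whole list.

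**Figure D1:**
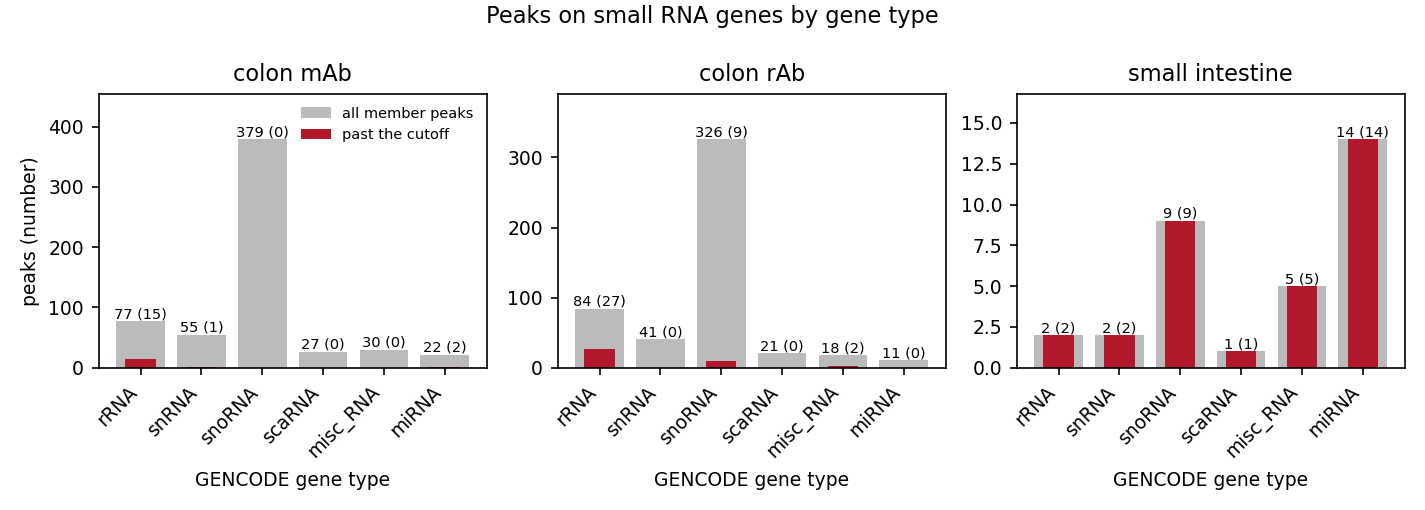
Number of peaks on small RNA genes (y axis) by GENCODE gene type (x axis) in each list, with all peaks in grey and sites in red. SnoRNA genes held the most colon peaks (379 in mAb, 326 in rAb), rRNA genes the most colon sites (15 and 27), and genes typed as miRNA the most small intestine sites (14).

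The typical small RNA peak lay lower than the typical peak of its list. The median log2 fold was −0.32 for mAb (interval −0.44 to −0.11) against 1.15 over all its peaks, and 0.63 for rAb (0.39 to 0.81) against 2.24. In the mAb list 55.4% of the small RNA peaks had fewer scaled IP than input reads, against 16.1% of all peaks. For rAb these shares were 36.5% and 7.93%. Small RNA genes also held most of the strongly depleted peaks: 79 of the 118 mAb peaks below −2 (66.9%) and 32 of the 41 rAb peaks below −2 (78.0%).

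Whole reads could be traced from the deposited pairs of values for 237 of 590 mAb and 289 of 501 rAb peaks, and for the rest, nearly all of them below input or at the cap of −log10 p, not. Over the traced peaks the median small RNA peak had 29 IP and 18 input reads in mAb and 27 and 26 in rAb, against 3 and 2 over all traced peaks of either list. At low depth a peak is called only when the IP holds reads there, and the part of depth in the lower medians was not tested. In the small intestine the median over the 33 sites was 3.60 (3.45 to 4.39), against 4.29 over all sites of the list.

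SnoRNA genes gave the largest number of genes with a peak: 232 of 1507 annotated genes had a peak in mAb and 214 in rAb. For rRNA the counts were 44 and 42 of 354 genes, for scaRNA 16 and 15 of 51, the largest share of a type, for snRNA 37 and 28 of 1385, for misc_RNA 20 and 13 of 562, and for miRNA 22 and 10 of 2207. Only genes with enough reads for a peak enter these counts, and reads that matched repeat elements had been removed before alignment. What is left on multi-copy RNAs is therefore a remainder, and the counts do not measure how much of each RNA DDX5 held.

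**Figure D2:**
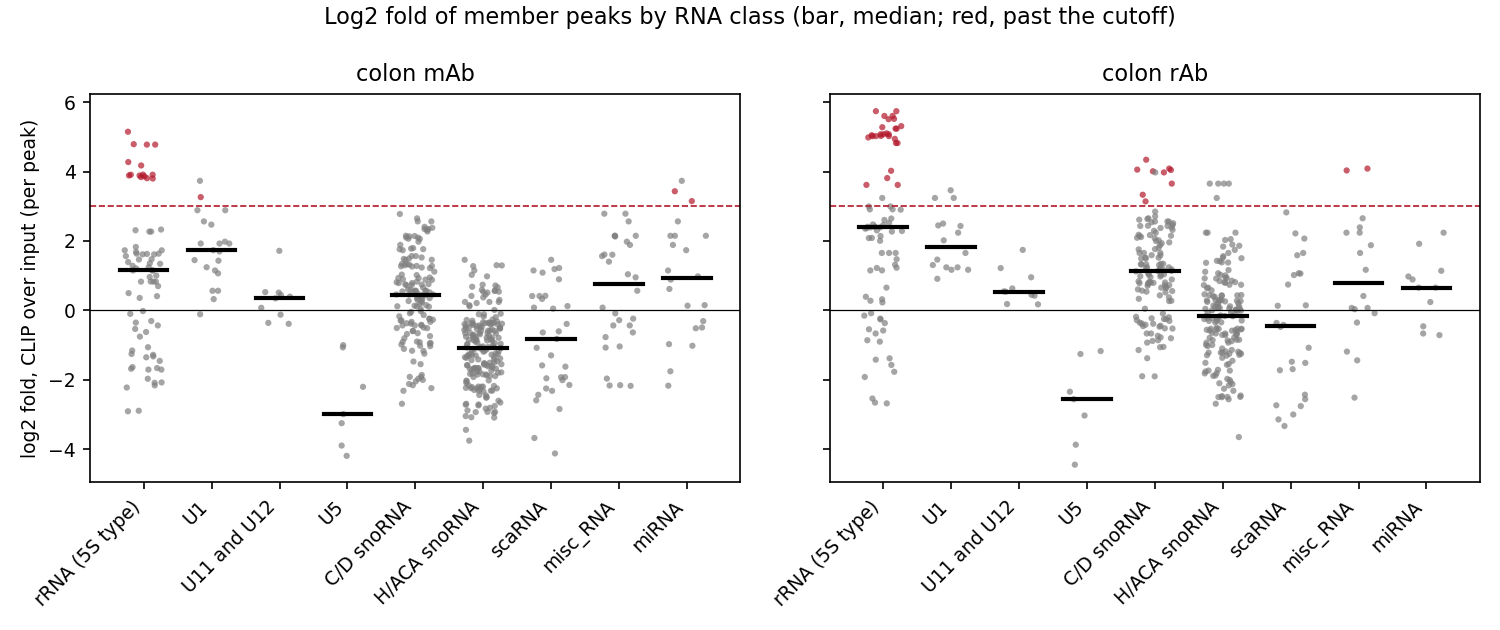
Log2 fold of CLIP over input (y axis) of each colon peak by RNA class (x axis), with sites in red, other peaks in grey and the median as a bar; the dashed line marks the cutoff of 3. Most sites sat in the 5S-type rRNA column of both lists and, for rAb, among C/D box snoRNAs. The others were 1 U1 and 2 miRNA sites in mAb and 2 misc_RNA sites in rAb. All U5 peaks lay below 0.

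The 5S-type rRNA genes were the most enriched small RNA genes of the colon. Of 77 mAb peaks on rRNA genes, 15 were sites (19.5%, interval 11.3 to 30.1), and of 84 rAb peaks, 27 were sites (32.1%, interval 22.4 to 43.2). The median log2 fold was 1.15 in mAb and 2.39 in rAb. The sites lay on 7 genes in mAb, and the same 7 were among the 10 genes with sites in rAb. Adjoining pieces of a peak were counted singly here. With peaks up to 10 bases apart joined, the peaks on rRNA genes came to 46 in mAb and 43 in rAb. The intervals of the shares take the pieces as separate, so they are too narrow. All rRNA genes with a peak in any list aligned to the 5S gene Rn5s, at 73.0 to 99.2% identity over the aligned bases, and no peak lay on a gene named as 5.8S rRNA.

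n-R5s158, the highest of them, had a log2 fold of 5.15 in mAb (72 IP and 3 input reads) and 5.74 in rAb (51 and 3 reads). n-R5s2 followed at 4.79 and 5.61, with −log10 p at the cap of 400 in both lists. n-R5s175 stood at 4.28 in mAb (131 and 10 reads) and 5.52 in rAb. Each of these genes held sites under both antibody names, with the rAb value the higher.

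Gm23806, in an intron of the microtubule-associated gene Map7d2, had the most peaks of any rRNA gene (7 in each list), and 5 of the 7 were sites in each. Its best log2 fold was 4.18 in mAb and 5.31 in rAb. n-R5s7 stood at 3.91 (61 and 6 reads) and 5.08 (75 and 7 reads), n-R5s89 at 3.89 (20 and 2 reads) and 5.24 (24 and 2 reads), and n-R5s28 at 3.81 and 5.10. Genes with a site in rAb alone were Gm23152 in an intron of Prex1 (4.82, against 2.33 in mAb), Gm24573 (4.02 against 1.56) and Gm22816 (3.81 against 2.31). The last pair was named after their values were seen.

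Within the 5S sequence all colon sites lay in the 5′ stretch. Positions were carried by pairwise alignment onto the 5S reference gene Rn5s, and each of them ended by base 45. In mAb, 47 peaks on 25 genes ended by base 45, with a median log2 fold of 1.63 (1.47 to 2.31) and all 15 sites. The 17 peaks that crossed base 45 had a median of −1.06, and the 13 that started past it a median of −1.46, with 0 sites in either group. In rAb the same 3 groups held 58, 11 and 15 peaks, with medians of 3.0 (2.46 to 4.82), 0.23 and −0.90, and all 27 sites lay in the first group.

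Base 44 was the most common end of the 5′ peaks, for 14 in mAb and 16 in rAb. The boundary of 45 was chosen after the values were seen, so the split describes these peaks and is no test. The drop was also seen within single genes that had peaks on both sides: Gm23806 had 4.18 before and 0.83 after the boundary in mAb, and 5.31 and 1.32 in rAb. For n-R5s33 the values were 1.21 and −2.08 in mAb and 1.47 and −2.54 in rAb, and for n-R5s151 they were −0.10 and −1.26 in mAb.

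**Figure D3:**
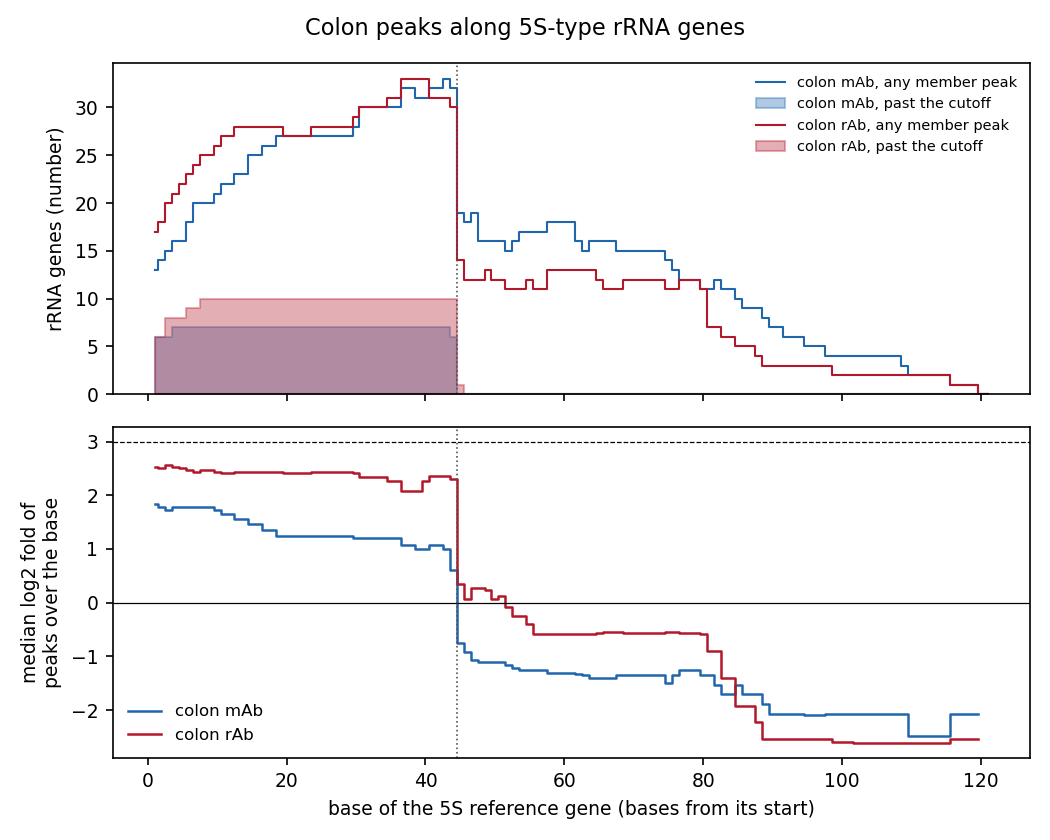
Upper panel, number of rRNA genes with a colon peak over each base (lines) and with a site over it (filled); lower panel, median log2 fold of the peaks over each base; the x axis is the base of Rn5s and the dotted line lies between bases 44 and 45. The number of genes fell from 32 at base 44 to 19 at base 45 in mAb and from 30 to 14 in rAb, and the median fell from 0.60 to −0.76 and from 2.31 to 0.35.

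Most genes with a site were less like Rn5s after the first 44 bases, and some differed little along their length. In the 10 genes with a colon site, the first 44 bases were 86.4 to 97.7% identical to Rn5s (median 92.1%), and the rest of the gene 62.0 to 96.0% (median 82.0%). The first stretch was the more alike one in 9 of the 10. In the other 34 rRNA genes that could be split this way, the medians were 90.8% and 93.3%, and the first stretch was the more alike one in 8. n-R5s158 and n-R5s175 followed Rn5s closely over the first stretch, at 90.9% and 95.5%, and less so after it, with 62.0% and 66.2% identity in the rest. In n-R5s2 these values were 97.7% and 96.0%, and in n-R5s89 they were 86.4% and 86.7%.

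Read placement limits what each single gene stands for. Over their full length, 35.1% of the mAb and 31.0% of the rAb peaks on rRNA genes lay on a gene with a near-identical copy elsewhere (at least 90% of the gene aligned at 95% identity or more), and n-R5s2 alone had 40 such copies. The stretches under rRNA sites each occurred at 1 exact place in the chromosomes, but places with mismatches were not searched for these stretches. In the genes with a colon site the first 44 bases held 1 to 6 mismatches to Rn5s, with 1 each in Gm23806, n-R5s2 and n-R5s28. An exact search therefore does not show that shorter reads, or reads with a mismatch, had 1 place only. How the authors' alignment placed reads among these genes was not tested.

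The small intestine list had 1 rRNA gene, Gm26197, with sites of 5.21 and 4.97 over its bases 35 to 72. Its whole-gene identity to Rn5s was 79.6%, but the stretch under the sites matched Rn5s at 100% over 36 bases. Reads within those bases cannot be assigned to Gm26197 alone. On Rn5s the site of 4.97 covered bases 36 to 55 and that of 5.21 bases 56 to 73. The site of 4.97 thus crossed the boundary used for the colon peaks, and that of 5.21 lay past it. Colon peaks of both kinds held no site. In the colon Gm26197 had −0.35 in mAb and 0.39 in rAb. None of the 10 rRNA genes with colon sites had a site in the small intestine. The protocols and the selection of peaks differed between the tissues, so the role of tissue cannot be told apart from them.

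Among snoRNAs, C/D box peaks lay higher than H/ACA box peaks under both antibody names. Class was taken from the RefSeq product or the gene symbol. In mAb the median log2 fold was 0.46 (0.23 to 0.65) over 143 peaks on 113 C/D genes and −1.09 (−1.28 to −0.87) over 206 peaks on 98 H/ACA genes. In rAb it was 1.14 (0.82 to 1.34) over 133 peaks on 108 C/D genes and −0.17 (−0.53 to 0.04) over 170 peaks on 88 H/ACA genes. The intervals of the 2 classes did not overlap in either list.

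The share of peaks below input followed the same split. In mAb it was 36.4% for C/D and 86.4% for H/ACA peaks, and in rAb 23.3% and 55.3%. With 1 value per gene, the median of its peaks, 69 of 113 C/D genes lay above 0 in mAb (61.1%) against 13 of 98 H/ACA genes (13.3%). For rAb the counts were 78 of 108 (72.2%) and 29 of 88 (33.0%). Limited to peaks with at least 20 reads, the medians were 0.45 and −1.07 in mAb and 1.14 and −0.18 in rAb, where a peak known by its ratio alone counted with the fewest reads that give the ratio.

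The classes are known by their ends and lengths, and the sequences were checked for both. The D box letters CTGA lay within the last 20 bases of 97.3% of the C/D genes with a mAb peak and of 7.14% of the H/ACA genes, against 35.4% of all 1507 annotated snoRNA genes. The C box letters TGATGA lay within the first 20 bases of 65.5%, 1.02% and 21.7% of these. The letters ACA lay within the last 8 bases of 9.73%, 94.9% and 46.8%. The gene's own strand was searched and not the opposite one, and CTGA and TGATGA, which share letters, were sought at opposite ends. The median lengths were 77 bases for the C/D and 133 bases for the H/ACA genes.

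All snoRNA sites of the colon were on C/D genes and in the rAb list: 9 of 326 snoRNA peaks (2.76%, interval 1.27 to 5.18), on 6 genes. That interval held the 1.99% of all rAb peaks, so snoRNA peaks as a whole were sites about as often as other peaks. The mAb list had 0 sites among 379 snoRNA peaks, which allows a share of up to 0.969%, against 1.22% of all mAb peaks. Gm26247, in the gene 2410002F23Rik, had the highest value, 4.34 in rAb (58 and 9 reads), with a second site at 4.09. In mAb its best peak was at 2.78 (51 and 11 reads). Gm23991, in the same host, had 4.06 in rAb with −log10 p at the cap, and 2.35 in mAb (141 and 41 reads).

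Snord12, one of several snoRNAs in the non-coding host Zfas1, had rAb sites of 3.98 (75 and 15 reads) and 3.65 (84 and 21 reads) and a best mAb value of 2.27 (72 and 22 reads). Snord8, in the chromatin remodeller gene Chd8, had 4.05 in rAb (21 and 4 reads) and 1.77 in mAb (23 and 10 reads). Gm23262, in the translation factor gene Eif4g2, had 3.14 (28 and 10 reads) and 2.10 (29 and 10 reads). All 6 genes were thus also above input in mAb, below the cutoff. Of these genes, 5, with 8 of the 9 sites, overlap an annotated exon of their host, so that their reads and those of the host cannot be told apart, and Snord8 is intronic. Snord12 and Gm23262 were named after their values were seen.

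In rAb the C/D sites had their centre in the 5′ part of the snoRNA. Some were wide, and those of Snord8 and Gm23262 reached base 84 and base 78 of the gene. There, 87 C/D peaks had their centre in the 5′ part of the gene, with a median of 1.32 and all 9 sites, and 46 had it in the 3′ part, with a median of 0.81 and 0 sites. The mAb medians of these parts were 0.49 and 0.46, and in the small intestine the sites of Snord14c (bases 56 to 90), Snord14e and Gm24494 lay in the 3′ part. Snord89, with 2 peaks in each list, was the C/D gene outside the sites with the highest value common to both, at 2.65 in mAb and 2.56 in rAb. Gm25483, a snoRNA of unnamed class in an intron of Ero1lb, had 3.15 and 3.98, with −log10 p under 3 in both (6 and 1 reads in mAb, 5 and 1 in rAb, where an input of 1 may stand for 0).

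H/ACA snoRNAs held no site in any list. Snora7a, in the ribosomal protein gene Rpl32, had the most peaks of any small RNA gene in mAb, 9 from −1.58 to −0.18, and 7 in rAb from −0.71 to 0.79, as many as Gm23806. Snora33, in Rps12, stood at −3.45 in mAb and −2.50 in rAb. Gm24411 in the non-coding host Snhg17 had −3.76 in mAb, and Snora17 had −3.65 in rAb. Gm23795 had 4 short rAb peaks with log2 fold 3.65 that did not pass on −log10 p (4 and 1 reads each). These H/ACA genes, apart from Snora7a, were named after their values were seen.

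Host genes that carried both classes allowed a comparison within 1 transcript. In mAb 7 hosts had peaks on both, and the C/D median was the higher one in 6, by a median difference of 1.4 on the log2 scale (−1.74 for Eef1b2 to 3.0 for Snx5). In rAb it was higher in 8 of 8 hosts, by a median of 1.76 (0.12 for Rpl5 to 3.76 for Snhg12). In Eif4a1, a translation factor gene, the C/D member stood at 2.06 and the H/ACA members at −0.79 in mAb, and at 2.61 and 0.26 in rAb. In Snx5 the values were 0.54 and −2.45 in mAb, and 1.34 and −1.74 in rAb.

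The small intestine list gave the same 1-sided picture among its snoRNAs: all 9 sites, on 8 genes, were on C/D members. Snord14c (4.24) and Snord14e (3.60) lie in the chaperone gene Hspa8, and Snord83b had sites of 3.85 and 3.59 in Rpl3. Further sites lay on Snord32a in Rpl13a (3.33), Snord99 in Snhg12 (3.25), Gm25878 in Zfas1 (3.17) and Gm24494 in Rabggtb (3.02). All 8 genes had a peak in the rAb list and 7 in the mAb list, none a site there. Snord14c, for example, had 1.3 in mAb and 2.39 in rAb, and Snord83b 0.54 and 1.33. Since only sites were listed for the small intestine, whether H/ACA members lay below input there could not be seen.

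The scaRNAs had colon medians of −0.64 (interval −1.96 to 0.41) over 27 mAb and −1.08 (interval −2.56 to 1.07) over 21 rAb peaks, and 0 sites. Scarna3b, in an intron of Dcaf5, had −4.13 and −3.33, and Gm25820 had −3.68 and −2.43. At the other end Gm22009, annotated by RefSeq as scaRNA 7 in an intron of Kpna4, had 1.22 in mAb and 2.82 in rAb, and Gm24289 had the most mAb peaks, 4 from −0.61 to 0.41. Scarna2, which has no host gene, was above input in both colon lists (1.09 and 1.59) and was the scaRNA with a small intestine site (3.06).

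The snRNAs split by kind. U1-type genes, whose RNA pairs with the 5′ splice site, lay above input: 20 of 21 peaks in mAb (median 1.73, interval 1.15 to 2.47) and all 16 in rAb (median 1.84, interval 1.24 to 2.5). Over all peaks, 16.1% of mAb and 7.93% of rAb lay below input, with medians of 1.15 and 2.24, so the rAb median of U1 was under that of its list. Gm24046, in an intron of the pseudogene Aqp10-ps, held the snRNA site of the colon, at 3.26 in mAb (13 and 2 reads) over its bases 48 to 103, and had 3.46 in rAb with −log10 p just short of the cutoff at 2.97 (7 and 2 reads). The U1-type genes Gm22739 (3.73 in mAb, 9 and 1 reads) and Gm26361 (3.24 in rAb, 3 and 1 reads) were past the fold cutoff and not past that of −log10 p. Read placement limits single snRNA genes too: 50.9% of the mAb and 41.5% of the rAb snRNA peaks lay on a gene with a near-identical copy elsewhere. The U1-type gene Gm22513 had 21 such copies, and Gm24046 had 0.

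U5-type genes, whose RNA holds the exons together during splicing, lay below input at every peak. The 7 genes had 1 peak each in both lists, with a median log2 fold of −2.99 in mAb and −2.56 in rAb. Gm25313 was the lowest small RNA gene of both lists (−4.20 and −4.45), followed among U5 genes by Rnu5g (−3.90 and −3.88). The highest were Gm23143 (−1.0 and −1.26) and Gm23287 (−1.07 and −1.17). The order of the 7 was the same in both lists apart from 2 pairs of neighbours, and they were named after their values were seen.

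The minor spliceosome RNAs, which splice a small class of introns, differed in level by gene. The U11 gene Gm24890 had 1.72 in mAb and 1.74 in rAb. Rnu11 had 5 mAb peaks from −0.39 to 0.53 and 4 rAb peaks from 0.42 to 1.22, with 1313 IP and 1348 input reads behind the highest mAb peak. Rnu12 had 4 mAb peaks from 0.07 to 0.44 and 5 rAb peaks from 0.17 to 0.63. The U6atac gene Gm25541 had mAb peaks at −1.48 and an rAb peak at −0.65, and a site at 3.26 in the small intestine. Gm24265, a U4 gene, had a small intestine site at 3.04 and no colon peak. U2 genes had peaks in mAb from −0.57 to 0.98, and Rnu7, which acts in histone mRNA processing, had −0.12 in mAb and −1.61 in rAb.

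Among misc_RNA genes the known polymerase III RNAs lay near or below input. Rn7sk, the RNA that holds back the elongation factor P-TEFb, had −0.24 in mAb and −0.35 in rAb. The Y RNA Rny3 had −2.18 and −2.52. The vault RNA Vaultrc5 had 5 mAb peaks from −2.17 to −0.77 and 3 rAb peaks from −1.44 to 0.03. The signal recognition particle RNA (7SL) differed, with best mAb values of 1.98 for Rn7s1, 1.61 for Rn7s2 and 0.56 for Rn7s6, and it had no rAb peak.

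Terc, the RNA template of telomerase, had 0.08 in mAb and 2.65 in rAb (8 and 4 reads). Gm22058, in an intron of Atl1, was the misc_RNA gene with colon sites, at 4.09 (27 and 5 reads) and 4.03 (26 and 5 reads) in rAb, against 0.95 in mAb (17 and 13 reads). In the small intestine Gm27533 (4.67) and Gm27505 (4.39 and 3.14) lie within the nuclear non-coding RNA Neat1, whose other sites, 46 in all, had a median of 5.26. A site on these short annotated genes was therefore lower than the typical site of its host. Gm23884 (3.61) and Gm26035 (3.04) had a site in the small intestine and no colon peak. All named here apart from Vaultrc5, Gm22058, Gm27533 and Gm27505 were named after their values were seen.

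Genes typed as miRNA led the small intestine list, with 14 of its 33 small RNA sites, on 10 genes, and a median of 4.45. RefSeq listed a mature miRNA for 5 of these 10 genes, so the count is one of annotated type. Of the 14 sites, 3 lay on Gm26117, part of which matched 28S rRNA. The 4 near-identical genes printed above had no mature miRNA listed, and a match of these to full-length 28S rRNA was not tested. The 6 highest sites lay on 4 hairpins and each lay on 1 arm. In Mir194-1 sites of 5.92 and 6.41 covered bases 7 to 19 and 20 to 29, over miR-194-5p at bases 7 to 28. In Mir194-2 sites of 5.70 and 5.91 covered bases 16 to 21 and 22 to 38, over miR-194-5p at 16 to 37. Mir215 had 5.81 over bases 29 to 51, with miR-215-5p at 30 to 50, and Mir142 had 6.04 over bases 40 to 64, with miR-142a-3p at 40 to 62. In all 4 the other arm had 0 bases under a site.

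**Figure D4:**
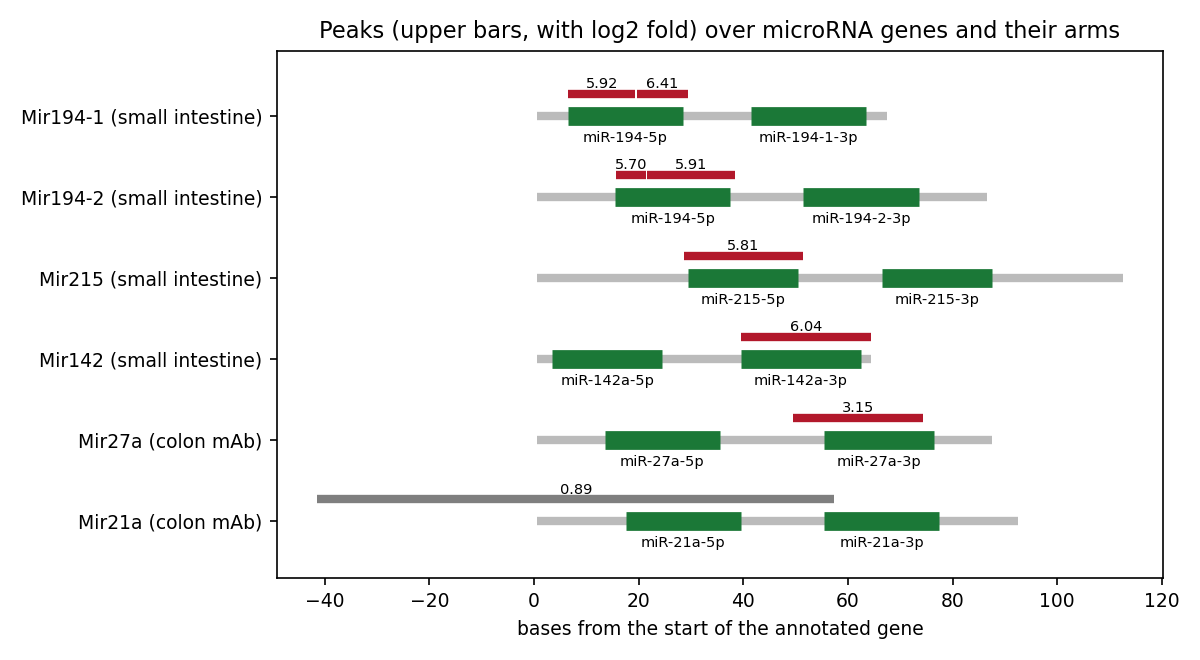
Peaks over 6 miRNA genes, with the annotated gene in grey, the mature miRNAs as green boxes and the peaks above them (red, sites; dark grey, not a site) with their log2 fold; the x axis is the distance in bases from the start of the annotated gene. The joined small intestine peaks of 4 genes began and ended within 2 bases of 1 mature miRNA, while the colon peak of Mir21a spanned from before the gene to base 57.

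Mir194-1 and Mir215 lie within 1 host, the antisense gene 2010103J01Rik, and miR-194 and miR-215 are known for high levels in the gut epithelium. Of 9 miRNA genes listed as epithelial, 3 had a site in the small intestine (Mir194-1, Mir194-2 and Mir215) and 0 had a peak in either colon list. Of 6 listed for other cells, Mir142, known from blood cells, had a site in the small intestine and 0 had a colon peak. None of the 5 immune marker genes had a site in the small intestine list, and fewer cells of a type cannot be told apart from less RNA per cell in such samples. The miR-194-5p sequence is the same in both genes, so its reads cannot be assigned to 1 of them.

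Of 6 miRNA genes listed as processed with DDX5, Mir21a had a mAb peak, at 0.89 with 10 IP and 8 input reads, and the other lists had 0. That peak reached from 41 bases before the gene to base 57 and so covered the 5p arm and the sequence upstream. Mir27a held a mAb site at 3.15 (12 and 2 reads) over bases 50 to 74, with 90.5% of miR-27a-3p under it, and no peak in rAb. Mir1938, in an intron of Ifrd1, had 3.78 in the small intestine, over a span from 70 bases before the gene to base 39 with the mature miRNA at bases 9 to 30, and 3.73 in mAb, where −log10 p was 2.74 (9 and 1 reads).

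Several genes typed as miRNA had no mature product listed by RefSeq. The 4 printed above were 91.1 to 98.2% identical to each other in pairs, and had small intestine values of 3.33 for Gm24270, 4.24 for Gm24187, 4.67 for Gm25911 and 3.45 for Gm23388. Gm24270 was also a site in mAb (3.43, −log10 p at the cap) and had 1.92 in rAb (304 and 253 reads), and its stretch occurred at other exact places of the chromosomes. It was the gene with a site in both the mAb and the small intestine list. Gm26117, with 3 sites of 3.51, matched 28S rRNA at 95.2% over 21 bases. The 28S sequence used here was a fragment of 420 bases, so the absence of a match in other genes, the 4 printed above among them, tells little. Gm22133, which overlaps an exon of the ferritin gene Ftl1, had the most rAb peaks of a miRNA gene, 2 with a best value of 0.98.

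By host, most colon peaks lay on small RNA genes inside another gene. In mAb 250 peaks lay on intronic genes (median −0.33, 7 sites), 216 on genes that overlapped an exon of the host (−0.44, 0 sites) and 124 on genes without a host (0.50, 11 sites). In rAb the same groups had 212 peaks (0.50, 10 sites), 179 (0.30, 8 sites) and 110 (1.62, 20 sites). The small intestine had 10, 12 and 11. Where a gene overlaps a host exon, reads of the small RNA and of the spliced host cannot be told apart.

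Small RNAs tended to lie below the other peaks of their host. Of 205 hosts in mAb, 116 also had peaks elsewhere, and the median of the small RNA peaks was the lower one in 76 and the higher one in 38, with a median difference of −0.86. In rAb it was lower in 67 and higher in 21 of 89 hosts, with a median difference of −1.24. Small RNA peaks were deeper, with a median of 29 IP reads in mAb and 27 in rAb, against 3 over all traced peaks of either list. The part of depth in these differences was not tested. In Hspa8 the order was the other one: its 3 snoRNA genes had a median of 1.12 in mAb and 1.88 in rAb, against −0.31 and 0.07 over its other peaks, and Rpl13a was alike (1.37 and 2.15 against −0.15 and 0.33).

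Hosts known for snoRNAs are the ribosomal protein genes and the non-coding Snhg genes. In mAb 31 ribosomal protein genes carried 57 small RNA genes with peaks (median −0.45), and in rAb 30 carried 55 (0.58). The Snhg genes with Gas5 and Zfas1 carried 30 and 29 (median −0.85 and −0.25), and the other hosts 208 and 175 (−0.37 and 0.44). Zfas1 lay higher than the rest, at a median of 2.21 in mAb and 2.43 in rAb, as did 2410002F23Rik at 1.79 and 2.59. Eif4a2 had the most small RNA peaks of any host, 13 in mAb and 12 in rAb, at medians of −0.65 and 0.06, and Gas5, with 8 and 7 snoRNA genes, had medians of −0.52 and 0.68.

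The colon lists covered largely the same small RNA genes. They shared 300, which was 80.9% of the mAb and 93.2% of the rAb genes. The share was highest for snoRNA genes (207, or 89.2% and 96.7%) and lowest for miRNA genes (6, or 27.3% and 60%). Over the 300 genes, the rAb value was the higher one in 245, with a median difference of 0.68. This was also the difference over the colon lists as a whole: 0.67 over 3291 overlapping pairs of peaks, with rAb higher in 2526. It was thus not particular to small RNA genes.

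**Figure D5:**
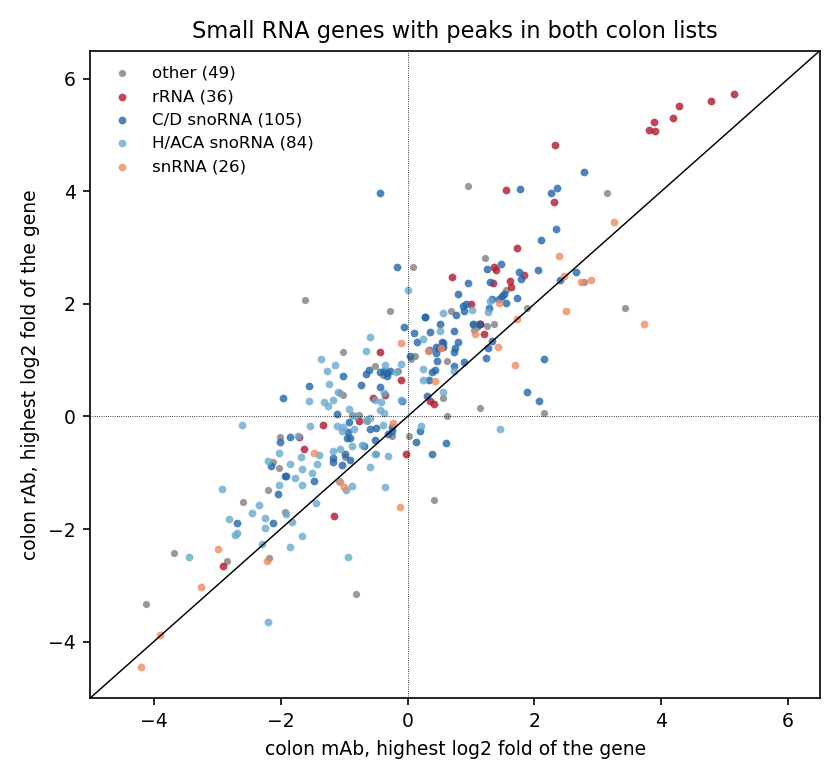
Highest log2 fold of each small RNA gene in the colon mAb list (x axis) and in the colon rAb list (y axis), for the 300 genes with a peak in both; the solid line marks equal values and colours give the gene type or class. Most points lie above the line, 7 rRNA genes stand at the upper right, and H/ACA snoRNAs and U5 genes reach the lower left.

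The genes kept a like order in both. Over the 300 genes Spearman's rho was 0.85 and Pearson's r 0.86, against 0.74 and 0.76 over all overlapping pairs of peaks. For rRNA rho was 0.96 over 36 genes, and for snoRNA 0.83 over 207. These correlations are across genes, which are not replicates, and the mAb and rAb samples may share cells, so they carry no p. Genes with a site in both colon lists numbered 7, all 5S-type rRNA genes, which was 70.0% of the mAb and 41.2% of the rAb genes with a site.

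The small intestine shared fewer genes with the colon. Of its 26 small RNA genes, 15 had a peak in mAb (57.7%) and 12 in rAb (46.2%), with 11 in all 3 lists. This was 4.04% of the mAb and 3.73% of the rAb genes. Genes with a site in both tissues came to 1 for mAb (Gm24270) and 0 for rAb. The same shares over all genes of the lists were not computed. Whether so small an overlap is particular to small RNA genes was therefore not tested.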

How the data were processed

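The eCLIPseq values were made by the authors. Per the labels and the study's methods, reads were trimmed, filtered for repeat elements and aligned, peaks were called with CLIPper on the IP library, and each was set against size-matched input; the submitters' processing notes list cutadapt 1.9.1, STAR 2.4.0i, SAMtools 1.4.1 and build mm10. The deposited log2 values are the fold of IP over input reads scaled for depth, and the deposited −log10 p values are held at 400. Small intestine replicates were merged by the authors with the Irreproducible Discovery Rate. Annotation columns of the authors, and a further peak list that matches no sample label, were not used here.

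Peaks were overlapped with GENCODE M21 genes in Python 3.11.15 (pandas 2.3.3, numpy 2.4.6, scipy 1.17.1). A peak over several genes was given 1 by type (rRNA, scaRNA, snoRNA, snRNA, misc_RNA, miRNA, in that order), then by the longest overlap. Families came from RefSeq products on GRCm38.p6 or the symbol, sequences from GRCm38 through pysam 0.24.0 and samtools 1.23.1, and copies from BLAST 2.17.0. Pairwise alignments used Biopython 1.88, and figures matplotlib 3.10.9. A host is another gene on the same strand that holds the small RNA gene. For the colon lists, whole IP and input reads that give both deposited values were sought: 237 of 590 mAb and 289 of 501 rAb peaks gave reads, and the rest, nearly all below input or at the cap, gave their ratio alone. No reads were traced for the small intestine, so depth is unknown there. Shares have exact (Clopper-Pearson) and medians order-statistic 95% intervals, which cover counting error only, since PCR copies are not independent molecules. The scripts were tested on simulated data.

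Genes named were, per list, up to 12 genes with a site by log2 fold, up to 12 with peaks in several lists by their lowest best value, the gene with the most peaks of each type, and their hosts; others are marked as chosen after their values were seen. The members and gene lists were chosen with earlier results of these data known. Some sequences and host genes are not reported here.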

Additional observations from a re-analysis of the deposited data

Results flagged for a closer look

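The U6atac gene Gm25541 was the small RNA gene with peaks in all 3 lists whose tissues lay on opposite sides of input: its site in the small intestine had a log2 fold of 3.26, and its colon peaks lay at −1.48 in mAb and −0.65 in rAb. The difference was not tested. The small intestine list holds only values above 3, and tissue, protocol and selection changed together.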

How the results depend on the processing

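Of the 76 alternatives planned for these results, 55 kept a count near its first value or a share or median within its interval and 21 moved it further, and of 48 added after the data were seen, 42 kept it and 6 moved it further. Leaving out peaks that also overlap an exon of another gene left 1 of the 9 rAb snoRNA sites, and 20 member peaks for the small intestine (20 of them sites), 368 for mAb and 316 for rAb, a share of sites of 4.89% in mAb, medians of −0.03 in mAb and 0.81 in rAb, and 185, 8 and 7 genes common to mAb and rAb, mAb and small intestine, and rAb and small intestine. With a log2 fold cutoff of 1, sites rose to 92 in mAb (15.6%, against 2.55% of all peaks) and 139 in rAb (27.7%, against 4.46%). With a cutoff of 4 they fell to 6 in mAb (1.02%, against 0.632%) and 13 in the small intestine (39.4%, against 60.9%). With peaks up to 10 bases apart joined, sites numbered 10 in mAb (2.44%, interval 1.18 to 4.44) and 17 in rAb (4.84%, interval 2.85 to 7.64), of which 7 and 10 were on rRNA genes. The mAb interval then held the 1.22% of all peaks, counted without joining. Without rRNA genes they numbered 3 in mAb (0.585%, under the 1.22% of all peaks, where the share with them was above) and 11 in rAb (2.64%). The alternatives changed which peaks were counted, how they were joined or the threshold, and the reasons for the shifts were not tested. The C/D and H/ACA medians kept their order in both colon lists under all alternatives run. No paired analysis was possible because the lists carry no values per replicate, and no replicate could be left out for the same reason. A looser cutoff cannot be tried on the small intestine, whose list holds only sites. Depth limits the lowest peaks: with 1 input read a log2 fold above 3 can miss the −log10 p cutoff, as for Gm22739.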
